A study of Mus musculus with 12 samples.

Results

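The cell's zinc genes described here are 9 of the 24421 genes counted in each library: the importers Slc39a4, Slc39a5, Slc39a8, Slc39a10, and Slc39a14, the exporters Slc30a1 and Slc30a10, and the metallothioneins Mt1 and Mt2. They were listed by symbol, and the list was chosen on measured values, because Slc39a4 was known to be higher in these tumors than in liver. The contrast of tumors with livers is therefore given for them as a description, without a p-value, and supports nothing. RNA was taken from whole tissue of aged mice on the standard diet, with 1 tumor and 1 non-tumor liver per mouse. The p21+/Tert mice (labelled p21Tert), in which the Cdkn1a (p21) promoter drives Tert, gave 4 tumors (T-HCA992, T-HCC941, T-HCC663, and T-HCC662) and 4 livers. The p21+/TertCi mice (labelled p21TertCi), in which the same promoter drives a catalytically inactive Tert, gave the tumors TCi-HCA984 and TCi-HCC981, 2 in all, and 2 livers. Tumors are named as in the study, and livers by their sample titles. Every mouse carried either of these alleles, so no wild-type tissue was compared. Driver classes come from the exome sequencing of the study and not from the sample labels: T-HCC662 and T-HCC663 carry a Ctnnb1 mutation, T-HCC941 an Egfr mutation, TCi-HCC981 an Hras mutation, and T-HCA992 and TCi-HCA984 none of these. Both Ctnnb1-mutated tumors are p21+/Tert tumors, so class and genotype cannot be told apart in full. The lesion named T-HCC663 was diagnosed as an adenoma in the histology of the study.

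Zinc enters the cytosol through transporters of the SLC39 (ZIP) family and leaves it, to the outside or into organelles, through the SLC30 (ZnT) family. Metallothioneins are small cysteine-rich proteins that bind zinc, copper, and cadmium in the cytosol. The transcription factor MTF1 senses free zinc, binds metal response elements in promoters, and raises Mt1, Mt2, and Slc30a1. In the liver, Slc39a14 and the metallothioneins are also known as genes of the acute-phase response, the change in hepatocyte secretion that follows inflammation. Some members carry other metals: Slc39a8 and Slc39a14 also take up manganese and iron, and Slc30a10 exports manganese.

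On GRCm38, GENCODE places Slc39a4 on the minus strand at chr15:76612383-76617384, and Slc30a1 and Slc30a10 on the plus strand at chr1:191906767-191913247 and chr1:185454848-185468762. Slc39a8 (chr3:135825279-135888572) is on the plus strand, and Slc39a5 (chr10:128395931-128401229), Slc39a10 (chr1:46807544-46892852), and Slc39a14 (chr14:70303469-70351425) are on the minus strand. Mt2 (chr8:94172664-94173568) and Mt1 (chr8:94179082-94180327) lie in tandem on the plus strand, with 5514 bases from the end of Mt2 to the start of Mt1. The promoters of Mt1 and Mt2, whose levels moved together, are shown with those of Slc30a1, the other member named above as a target of MTF1, and Slc30a10, which was lower in Ctnnb1-mutated tumors. Each sequence is the 250 bases before the RefSeq start, from RefSeq's GRCm38.p6 table, 5′ to 3′ on the plus strand. Capitals mark matches on either strand to TGCACNC or TGCGCNC, the core letters of a metal response element, where N is any base.
Mt1 (chr8:94178839-94179088, plus strand): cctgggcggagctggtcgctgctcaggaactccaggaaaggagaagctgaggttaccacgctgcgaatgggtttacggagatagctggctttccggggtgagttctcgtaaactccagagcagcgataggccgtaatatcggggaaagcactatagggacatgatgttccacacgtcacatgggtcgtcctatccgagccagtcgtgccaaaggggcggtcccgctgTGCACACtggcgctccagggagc
Mt2 (chr8:94172368-94172617, plus strand): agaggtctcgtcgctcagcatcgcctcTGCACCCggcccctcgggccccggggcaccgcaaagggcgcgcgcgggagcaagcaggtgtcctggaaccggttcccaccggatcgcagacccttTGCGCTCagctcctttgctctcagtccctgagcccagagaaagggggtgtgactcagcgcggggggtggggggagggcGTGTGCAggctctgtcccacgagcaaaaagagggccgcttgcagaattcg
Slc30a1 (chr1:191906531-191906780, plus strand): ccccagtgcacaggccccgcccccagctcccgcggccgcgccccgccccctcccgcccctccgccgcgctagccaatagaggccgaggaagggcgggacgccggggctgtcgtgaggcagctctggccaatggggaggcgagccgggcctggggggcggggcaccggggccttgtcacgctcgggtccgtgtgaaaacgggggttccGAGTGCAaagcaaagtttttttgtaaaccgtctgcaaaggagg
Slc30a10 (chr1:185454598-185454847, plus strand): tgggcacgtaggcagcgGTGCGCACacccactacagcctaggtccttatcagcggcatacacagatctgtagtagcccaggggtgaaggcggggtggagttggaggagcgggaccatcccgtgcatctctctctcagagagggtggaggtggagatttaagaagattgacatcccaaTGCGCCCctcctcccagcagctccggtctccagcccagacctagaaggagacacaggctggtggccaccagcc
Mt2 held 3 matches, Slc30a10 3, Mt1 1, and Slc30a1 1, and matches that overlap on opposite strands (a pair in Slc30a10) were each counted. Of all 32851 promoters in the table, 21.4% held at least 1 match in the same window and 1.26% held at least 3. The table had rows for 7 of the 9 members, all but Slc39a4 and Slc39a14. A match is a description of letters and not evidence of binding. Letters past the RefSeq start used, or further upstream than the window, were not read. A low count therefore does not mean that a gene has few metal response elements, and the counts do not rank the genes.

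Between 14571716 and 26170661 reads were counted on genes per library. Levels are given as CPM, the reads of a gene scaled to a common library total after TMM normalization, edgeR's correction for a few abundant genes. The 6 hepatocyte markers (Alb, Apoa1, Ttr, Cps1, Hnf4a, and Tat) were counted in all 12 libraries, with summed levels from 25901 to 49511 CPM in livers and from 15331 to 92042 CPM in tumors. Tert lay between 4.69 and 26.1 CPM, and its counts cannot tell Tert from the inactive Tert. The p21+/Tert liver titled p_961 has an animal number that the study does not list, and fits with the mouse as a block and ratios to a tumor's own liver take it as the liver of the mouse with T-HCC662. Within a tissue the samples come from different mice, each with 1 piece of that tissue. With that pairing the 12 libraries come from 6 mice, and the counts of mice below rest on it. In whole tissue, fewer cells of a type and less RNA per cell cannot be told apart.

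Slc39a4, the ZIP importer known from the intestinal enterocyte and from the inherited zinc deficiency acrodermatitis enteropathica, was a low to moderate transcript in liver and an abundant one in every tumor. Its level was 30.03 CPM in liver p_961, 22.8 in liver p_663, 31.1 in liver p_941, 62.7 in liver NT_992, 30.2 in liver L981_CI, and 14.3 in liver L984_CI. In the tumors it was 373 CPM in T-HCC662, but 175 in the other Ctnnb1-mutated tumor T-HCC663, 301 in T-HCA992, 546 in T-HCC941, 208 in TCi-HCA984, and 863 in TCi-HCC981. The groups did not overlap: the lowest tumor stood 2.79 times above the highest liver. These values chose the list, and how many of all genes tested separate the tissues as fully was not counted. Nothing is therefore read from the lack of overlap. The mean was 31.9 ± 16.4 CPM in livers (SD, n = 6) and 411 ± 258 CPM in tumors (SD, n = 6), a log2 fold change of 3.68 (SE 0.46). Against the liver of the same mouse the tumor was higher in 6 of 6 mice, by 4.8 times for T-HCA992 to 28.6 times for TCi-HCC981 (12.4 times for T-HCC662 with liver p_961). The lowest ratio came from the mouse whose liver was highest.

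**Figure D1:**
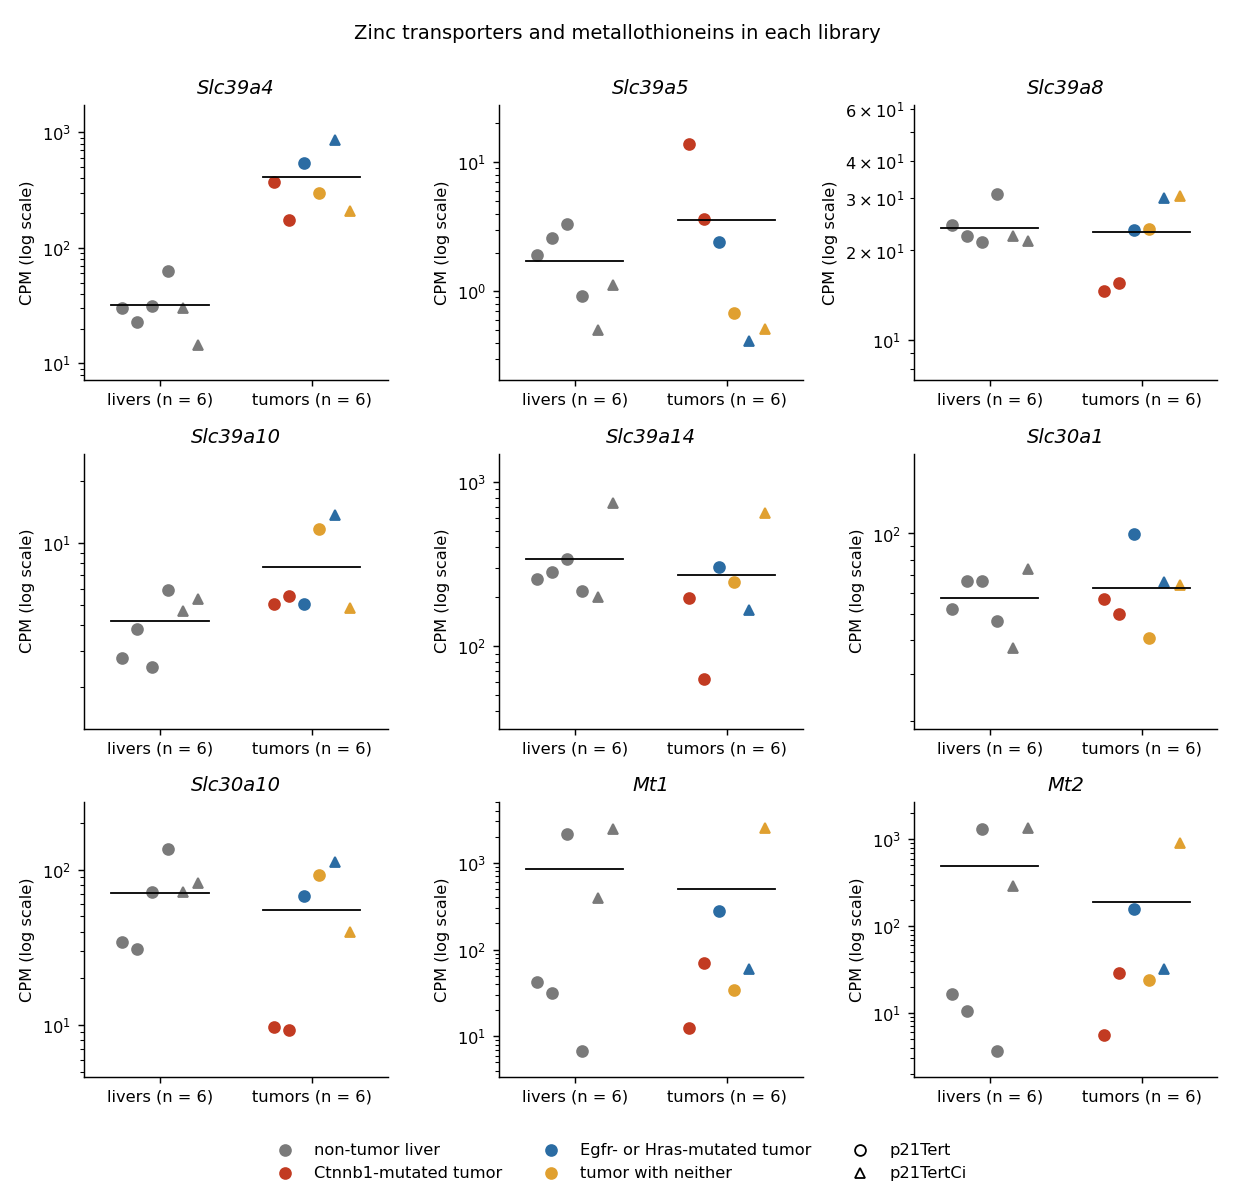
CPM on a log scale of each member in the 6 livers and 6 tumors, with colors for driver class, circles for p21Tert, triangles for p21TertCi, and a line at the arithmetic mean of each tissue. Slc39a4, whose rise chose the list, is the member whose tumors all lie above all livers. The red Ctnnb1-mutated tumors sit lowest for Slc30a10 and Slc39a8 and highest for Slc39a5. Mt1 and Mt2 spread over more than 100-fold within each tissue.

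Slc39a4 was the only member called in this contrast, which is 1 of 9. Across all 13822 genes tested by edgeR at an adjusted p under 0.05, 10.7% were called, 6.77% higher and 3.91% lower in tumors. The median log2 fold change was -0.06 over the members and 0.01 over all genes tested. Since the contrast chose the list, the call of Slc39a4 is no test of it, and nothing is read from these shares.

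Slc39a4 lies on chromosome 15, and the other genes of that chromosome were read in the same tumors. The median difference of 537 other tested genes of chromosome 15 from the liver mean, on the log2(CPM + 1) scale, was 0.51 in T-HCC662, 0.38 in TCi-HCC981, 0.21 in T-HCC941, 0.19 in T-HCC663, 0.06 in T-HCA992, and 0.06 in TCi-HCA984. The same difference for Slc39a4 ran from 2.55 in T-HCC663 to 4.85 in TCi-HCC981. In T-HCA992 and TCi-HCA984 it was 3.33 and 2.80. These are the values that chose the list, and the part of the chromosome in the Slc39a4 level was not tested.

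**Figure D2:**
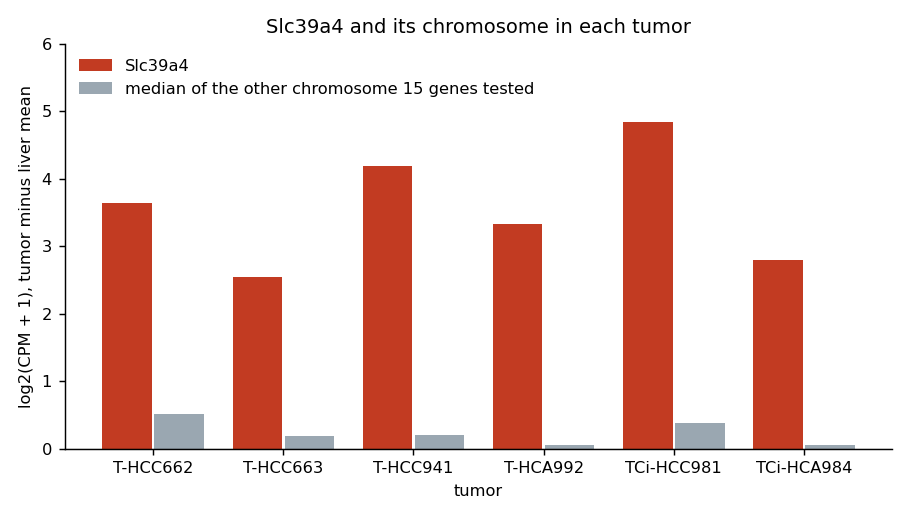
Difference from the mean of the 6 livers, in log2(CPM + 1), of Slc39a4 (red) and of the median of 537 other genes of chromosome 15 (gray) in each tumor. The red bars run from 2.55 to 4.85 and the gray bars from 0.06 to 0.51.

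Because Slc39a4 is best known from enterocytes, enterocyte markers were read in the same libraries. Sis and Cdx1, which define that cell type, had 0 counts in all 12 libraries. Lct and Alpi had at most 0.114 and 0.0568 CPM. Vil1, the microvillus protein villin, was called higher in tumors (log2 fold change 5.84, SE 1.28, edgeR adjusted p = 0.0125), from 0.738 CPM in TCi-HCA984 to 174 CPM in T-HCC941. Its livers ran from 0.145 to 1.81 CPM, so TCi-HCA984 lay inside the liver range and T-HCA992 (2.11 CPM) just above it. The remaining tumors ran from 4.51 to 174 CPM. Fabp2, which liver also expresses, lay between 29.4 and 132 CPM in livers and between 32.3 and 344 CPM in tumors. Summed over all 6 enterocyte markers, livers ranged from 30.3 to 133 CPM and tumors from 51.4 to 349 CPM, so the ranges overlapped.

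The remaining importers did not separate tumors from livers. Slc39a10, a plasma membrane importer, was low in both: its livers ran from 2.5 to 5.90 CPM (median 4.23) and its tumors from 4.83 to 13.7 CPM (median 5.30). T-HCA992 and TCi-HCC981 stood above all livers at 11.7 and 13.7 CPM, and the log2 fold change was 0.87 (SE 0.34), with the tumor above its own liver in 5 of 6 mice. Slc39a14 ran from 199 to 745 CPM in livers (median 269), and its tumors ran from 62.8 to 649.6 CPM (median 219.7), a log2 fold change of -0.33 (SE 0.49). TCi-HCA984 and its liver were both high, whereas T-HCC662, T-HCC663, and TCi-HCC981 were below every liver, and the tumor was below its own liver in 5 of 6 mice. Slc39a8 kept a narrow range in livers, 21.4 to 30.9 CPM (median 22.4), around which the tumors scattered from 14.6 to 30.6 CPM (median 23.5; log2 fold change -0.06, SE 0.20). Slc39a5, an importer of the basolateral membrane of enterocytes and pancreatic cells, was near the limit of detection, from 0.504 to 3.34 CPM in livers and from 0.411 to 13.9 CPM in tumors. The 13.9 CPM of T-HCC662 set its log2 fold change of 1.05 (SE 0.81), which was -0.17 without that tumor.

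The exporters likewise overlapped between tissues. Slc30a1, the plasma membrane zinc exporter, was among the steadiest members: livers ran from 37.6 to 73.9 CPM (median 59.3) and tumors from 40.8 to 99.2 CPM (median 60.6), with a log2 fold change of 0.12 (SE 0.22). Slc30a10 ran from 31.1 to 136 CPM in livers (median 71.4) and from 9.29 to 111 CPM in tumors (median 53.9), with a log2 fold change of -0.37 (SE 0.58). T-HCC662 and T-HCC663 were below every liver and the other tumors were not, and the tumor was below its own liver in 5 of 6 mice.

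Mt1 and Mt2 had the widest ranges of all members, in livers as in tumors. Mt1 was 41.9 CPM in liver p_961, 31.6 in liver p_663, 2147 in liver p_941, 6.76 in liver NT_992, 389 in liver L981_CI, and 2469 in liver L984_CI. In tumors it was 2509 CPM in TCi-HCA984, 280.4 in T-HCC941, 70.9 in T-HCC663, 59.4 in TCi-HCC981, 34.5 in T-HCA992, and 12.6 in T-HCC662. The highest liver exceeded the lowest 365 times, and the highest tumor the lowest 199 times. Mt2 ran from 3.65 CPM in liver NT_992 to 1343 CPM in liver L984_CI and from 5.54 CPM in T-HCC662 to 901 CPM in TCi-HCA984. It followed Mt1 library by library, with an Mt1 to Mt2 ratio of CPM between 1.34 in liver L981_CI and 3.01 in liver p_663. The standard deviation of log2(CPM + 1) over the 6 livers was 3.62 for Mt2 and 3.44 for Mt1, which placed them 3 and 6 from the widest of 13822 genes tested, whose median was 0.32. Slc39a8 had 0.19 and Slc30a1 0.36.

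With this spread the tissue contrast of the metallothioneins has wide errors, at a log2 fold change of -0.78 (SE 1.44) for Mt1 and -1.38 (SE 1.43) for Mt2. Within mice the direction was mixed. Mt1 fell short of its own liver in T-HCC941 (0.131 times), TCi-HCC981 (0.153 times), and T-HCC662 (0.301 times, with liver p_961), was level with it in TCi-HCA984 (1.02 times), and exceeded it in T-HCC663 (2.24 times) and T-HCA992 (5.10 times).

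Most of the acute-phase genes read were highest in the libraries where the metallothioneins were. The 10 acute-phase genes read (Saa1, Saa2, Lcn2, Orm2, Hp, Crp, Apcs, Fgb, Itih4, and Hpx) summed to 112796 CPM in liver L984_CI, 95392 in liver p_941, and 66550 in TCi-HCA984, the 3 libraries in which Mt1 was above 2000 CPM. Elsewhere they summed to between 11646 and 33596 CPM. Of the 10, 7 had their 3 highest values in these libraries, and Lcn2, Orm2, and Apcs did not, each having 1 other library above 1 of the 3. Saa1, a serum amyloid A gene, was 19183 CPM in liver p_941, 11406 in liver L984_CI, and 2922 in TCi-HCA984, against 29.996 to 665 CPM in the other libraries. Slc39a14 was highest in liver L984_CI and TCi-HCA984 too, and liver p_941 followed at 339 CPM. Slc30a1 had 66.7, 73.9, and 64.1 CPM in liver p_941, liver L984_CI, and TCi-HCA984, inside the range of the other libraries. Among livers alone, liver L984_CI and liver p_941 were the highest for Slc30a1, with liver p_663 close behind at 66.5 CPM. Mtf1 was inside the range of the other libraries in liver p_941 (34.9 CPM) and TCi-HCA984 (30.7 CPM), and highest of all in liver L984_CI (54.2 CPM).

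The 5 glucocorticoid-responsive genes read (Tsc22d3, Fkbp5, Per1, Sgk1, and Zbtb16) did not follow the metallothioneins in all 3 libraries. They summed to 347 CPM in liver L984_CI and 319.6 CPM in TCi-HCA984, the highest values, but to 146 CPM in liver p_941, within the 123 to 238 CPM of the remaining libraries. The part of the acute-phase and glucocorticoid genes in the metallothionein levels was not tested.

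**Figure D3:**
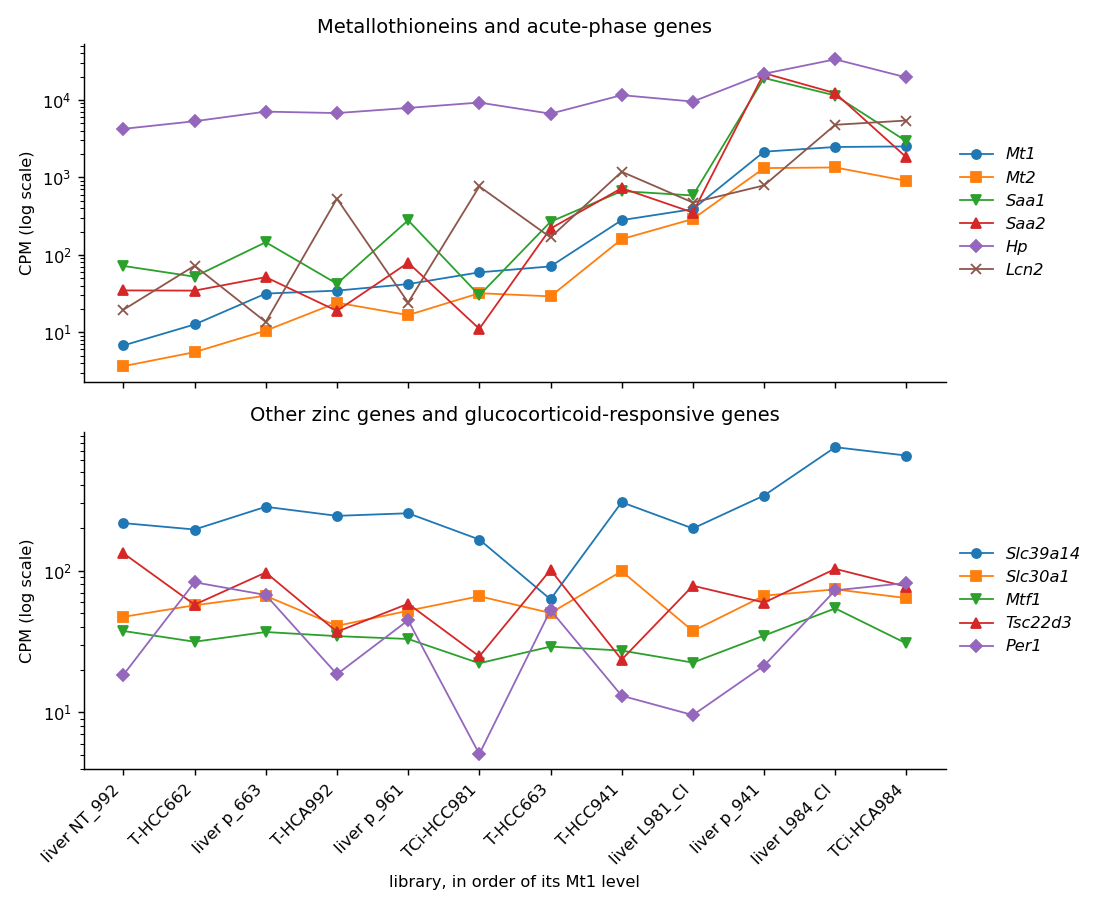
CPM on a log scale in the 12 libraries, ordered from the lowest to the highest Mt1. The upper panel has Mt1 and Mt2 with the acute-phase genes Saa1, Saa2, Hp, and Lcn2, and the lower panel has Slc39a14, Slc30a1, Mtf1, and the glucocorticoid-responsive Tsc22d3 and Per1. Mt1 and Mt2 are highest in liver p_941, liver L984_CI, and TCi-HCA984, where Saa1, Saa2, and Hp have their 3 highest values too, while Slc30a1 stays between 37.6 and 99.2 CPM.

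The genes whose pattern was most like that of Mt1 over the 12 libraries, leaving out members, were Hp (Pearson r 0.953), Lrg1 (0.935), Tbl1xr1 (0.913), Spata1 (0.912), and Saa1 (0.908). Those most like Slc39a4 were Srxn1 (0.97), Slc48a1 (0.963), Serpinb6b (0.958), Map4k4 (0.957), and Samd4 (0.954). Each r is of log2(CPM + 1) over 6 tumors and 6 livers of the same mice, is the highest of 13822 genes tested, and is a description.

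Levels of different genes can be compared only per length, here as CPM per kb of the longest coding transcript. By the median of the livers the order was Mt2 (300.4), Mt1 (199), Slc39a14 (54.5), Slc30a10 (12.2), Slc30a1 (11.3), Slc39a4 (10.95), Slc39a8 (6.33), Slc39a10 (0.77), and Slc39a5 (0.746). Slc30a10, Slc30a1, Slc39a4, and Slc39a8 could not be ordered, since their livers spanned 5.34 to 23.3, 7.16 to 14.1, 5.22 to 22.8, and 6.05 to 8.75 CPM per kb, and neither could Slc39a10 (0.455 to 1.07) and Slc39a5 (0.249 to 1.65). The metallothioneins likewise overlapped each other and, in their low libraries, the transporters. With these lengths Slc39a4 had the highest median in tumors at 123 CPM per kb, before Mt1 (60.1), Mt2 (59.7), and Slc39a14 (44.6). The ranges of Mt1, Mt2, and Slc39a14 overlapped that of Slc39a4 there, which was 63.7 to 314 CPM per kb. The length used was 1085 bases for Mt1, whose exons merged into 1 block, and 511 bases for Mt2. A shorter Mt1 transcript would raise Mt1 per kb, so its place against Mt2, and against Slc39a4 in tumors, is not settled.

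Among the tumors, driver class was not part of the rule and was tested. Against the 4 other tumors, the 2 Ctnnb1-mutated tumors had less Slc30a10 and Slc39a8 and more Slc39a5, and 6 of the 9 members did not pass the test. Across all 15182 genes tested by edgeR, 11.8% were called at an adjusted p under 0.05, 6.11% higher and 5.70% lower in the Ctnnb1-mutated tumors. The median log2 fold change was -0.85 over the members and -0.04 over all genes tested. Slc30a10, the manganese exporter, was 9.29 CPM in T-HCC663 and 9.69 CPM in T-HCC662 against 68.1 in T-HCC941, 91.7 in T-HCA992, 111 in TCi-HCC981, and 39.8 in TCi-HCA984. The classes did not overlap, and the difference was 8.23-fold (log2 fold change -3.04, SE 0.61, edgeR adjusted p = 0.0105). Liver p_663 and liver p_961 already had the lowest liver values, 31.1 and 34.2 CPM, and the tumors were at 0.298 and 0.283 times these.

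Slc39a8, the importer of zinc and manganese, was 15.6 CPM in T-HCC663 and 14.6 CPM in T-HCC662 against 23.4 to 30.6 CPM in the other 4 tumors. That gave a log2 fold change of -0.85 (SE 0.21, edgeR adjusted p = 0.0249), and the Ctnnb1-mutated tumors were also below all 6 livers. Slc39a5 was 3.64 CPM in T-HCC663 and 13.9 CPM in T-HCC662 against 2.43 CPM in T-HCC941, 0.681 in T-HCA992, 0.411 in TCi-HCC981, and 0.511 in TCi-HCA984 (log2 fold change 3.12, SE 0.81, edgeR adjusted p = 0.0297). Its classes did not overlap either, though they were nearest between T-HCC663 and T-HCC941, and the lowest value rests on 8 reads. Slc39a5 is also made in pancreas, and the 6 pancreas markers summed to at most 0.502 CPM in every library but T-HCC662, where Cela3b gave 1.98 CPM and the other 5 were at 0.

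The other members did not pass the test between the classes. Slc39a14 was 195 and 62.8 CPM in the Ctnnb1-mutated tumors and 166 to 649.6 CPM in the others (log2 fold change -1.42, SE 0.69, edgeR adjusted p = 0.191). Mt1 had a log2 fold change of -4.14 with an SE of 2.5 (adjusted p = 0.289), and Mt2 one of -4.04 with an SE of 2.45 (adjusted p = 0.290). Slc39a4 had -0.81 (SE 0.61, adjusted p = 0.401), Slc39a10 -0.75 (SE 0.49, adjusted p = 0.332), and Slc30a1 -0.34 (SE 0.33, adjusted p = 0.527). A p that misses the threshold does not show that the classes had equal levels.

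**Figure D4:**
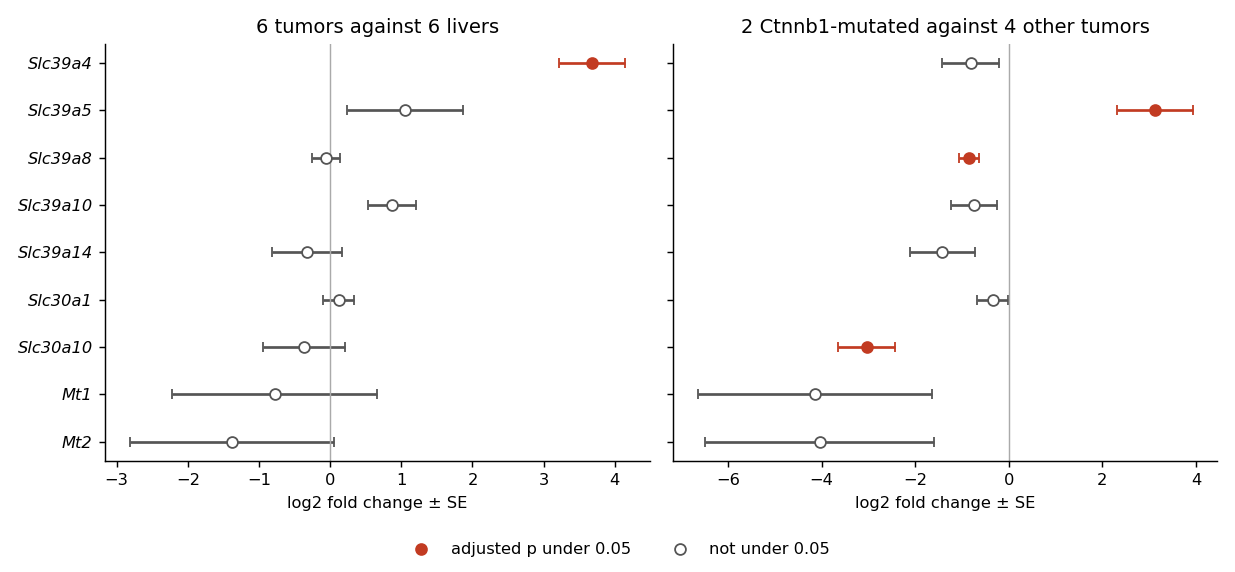
Log2 fold change with its SE of each member for 6 tumors against 6 livers (left, a description, since this contrast chose the list) and for 2 Ctnnb1-mutated against 4 other tumors (right). Filled red points on the right passed an edgeR adjusted p of 0.05: Slc39a5, Slc39a8, and Slc30a10. On the left Slc39a4 is filled by the same rule, which is no test there, since its rise chose the list. Mt1 and Mt2 have the widest errors in both.

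The calls between the classes rest on few tumors. How many of all genes tested separate these classes as fully was not counted, so nothing is read from the lack of overlap. With the mouse as a block, which sets each tumor against its own liver, 0 of 9 members were called by edgeR: Slc30a10 had -1.52 (adjusted p = 0.104), Slc39a5 2.24 (adjusted p = 0.157), and Slc39a8 -0.80 (adjusted p = 0.197), and Mt1 and Mt2 turned to 0.69 and 1.26. Without T-HCC662, 0 of the 3 were called (adjusted p = 0.0922 for Slc30a10, 0.148 for Slc39a8, and 0.316 for Slc39a5, which had 1.84). Without T-HCC663, Slc39a5 was called and Slc30a10 (adjusted p = 0.0748) and Slc39a8 (0.106) were not. Without TCi-HCC981, Slc30a10 was called and Slc39a5 (adjusted p = 0.064) and Slc39a8 (0.0508) were not. Slc39a5 was also lost without T-HCA992 (adjusted p = 0.0657) or TCi-HCA984 (0.0582). DESeq2 called the same 3 members.

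Some markers of other cell types differed between the classes as well, beside 11.8% of all genes called and 5.70% called lower. Their calls were not followed through the alternative fits. Of 6 stellate cell and fibroblast markers 3 were lower in the Ctnnb1-mutated tumors and 0 higher (median log2 fold change -2.22), with sums of 19.6 and 58.4 CPM against 121 to 303 CPM. Of 6 endothelial markers 3 were lower and 0 higher (median -1.82), with sums of 50.8 and 95.8 CPM against 134 to 256 CPM. Of 6 hepatocyte markers 2 were lower, of 5 bile duct markers 1 was lower, and of 7 macrophage markers 0 were called. The part of these cells in the member differences was not tested. Tert was lower too (log2 fold change -1.44, SE 0.39, edgeR adjusted p = 0.0339). The antisense gene Gm2061 shares 533 exon bases with Slc30a10 and followed it, at 0.991 and 0.263 CPM in the Ctnnb1-mutated tumors and 5.57 to 16.2 CPM in the others; without a stated strand setting, reads of the shared bases cannot be told apart.

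No member passed the test between the Egfr- or Hras-mutated tumors and the tumors with neither mutation. By edgeR 0 of 9 members passed, 1 had an unadjusted p under 0.05, and DESeq2 called 0; over all genes 0% were called by edgeR, 1331 had an unadjusted p under 0.05, and DESeq2 called 105. The 1 member was Slc39a4, at 546 and 863 CPM against 301 and 208 CPM, which do not overlap (log2 fold change 1.44, SE 0.58, adjusted p = 0.542). Slc30a1 did not overlap either, at 99.2 and 66.1 CPM against 40.8 and 64.1 CPM (log2 fold change 0.62, SE 0.35, adjusted p = 0.610). With so few tumors a lack of overlap is frequent. Its share over all genes was not counted, so nothing is read from it. The range of adjusted p over the members was 0.542 to 0.968.

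Genotype gave no call in either of its comparisons. For the difference between p21+/TertCi and p21+/Tert mice in the change from liver to tumor, edgeR called 0 of 9 members and 0% of all genes, with 1 member and 556 genes at an unadjusted p under 0.05, while DESeq2 called 0 members and 10 genes. The 1 member was Slc39a8, which was 22.3 and 21.5 CPM in the p21+/TertCi livers and 30.2 and 30.6 CPM in their tumors, against 21.4 to 30.9 CPM in the p21+/Tert livers and 14.6 to 23.6 CPM in their tumors (log2 difference 0.83, SE 0.35, adjusted p = 1). Its lowest p21+/Tert tumors are the Ctnnb1-mutated ones.

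Between the livers of the genotypes edgeR called 0 of 9 members and 0% of all genes, with 0 members and 756 genes at an unadjusted p under 0.05, and DESeq2 called 0 members and 42 genes. The range of adjusted p over the members was 0.936 to 0.999. Mt1 was 389 and 2469 CPM in the 2 p21+/TertCi livers, but 6.76 to 2147 CPM in the 4 p21+/Tert livers, so that the ranges overlapped.

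No zinc gene outside the list passed the test between tumor and liver. Of 20 read (the other ZIP and ZnT transporters, Mt3, Mt4, and Mtf1), 15 were abundant enough to be tested. In tumors against livers edgeR called 0 of them, with 3 at an unadjusted p under 0.05 and a median log2 fold change of -0.04. Of all 13822 genes tested there, 10.7% were called and 3618 had an unadjusted p under 0.05. With 15 genes, nothing is read from the 0. Slc30a4 came nearest (log2 fold change 0.94, SE 0.31, edgeR adjusted p = 0.067), and its tumors without a Ctnnb1 mutation were at 1.78 to 3.48 times their own livers. Between Ctnnb1-mutated and other tumors 2 of 15 were lower, 0 higher, and 13 not called (median -0.31), beside 11.8% of all genes called and 5.70% lower. With so few genes, nothing is read from that share. Slc30a7, which loads zinc into the Golgi, was 19.0 and 18.4 CPM in the Ctnnb1-mutated tumors against 31.2 to 47.3 CPM in the others (log2 fold change -1.10, SE 0.21, edgeR adjusted p = 0.0083). Slc30a4, a vesicular zinc transporter, was 11.7 and 13.1 CPM against 19.1 to 38.2 CPM (log2 fold change -1.37, SE 0.31, edgeR adjusted p = 0.0175). Neither overlapped between the classes, and the Ctnnb1-mutated tumors lay inside the liver range of 10.6 to 17.7 CPM for Slc30a4 and below that of 24.3 to 31.0 CPM for Slc30a7. Both calls were lost in the fit blocked by mouse (Slc30a7 at an adjusted p = 0.0567 and Slc30a4 at 0.0694), without T-HCC662 (0.0674 and 0.129), and without T-HCC663 (0.0521 and 0.0762). The log2 fold change itself moved little, to -1.0 for Slc30a7 and -1.3 for Slc30a4 in the blocked fit. Mtf1, the zinc sensor, had -0.33 (SE 0.19, adjusted p = 0.294) in tumors against livers and 0.07 (SE 0.29, adjusted p = 0.899) between the classes. In the comparison of Egfr- or Hras-mutated tumors with neither and in both genotype comparisons, edgeR called 0 of the 15, with 0, 0, and 1 at an unadjusted p under 0.05.

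**Figure D5:**
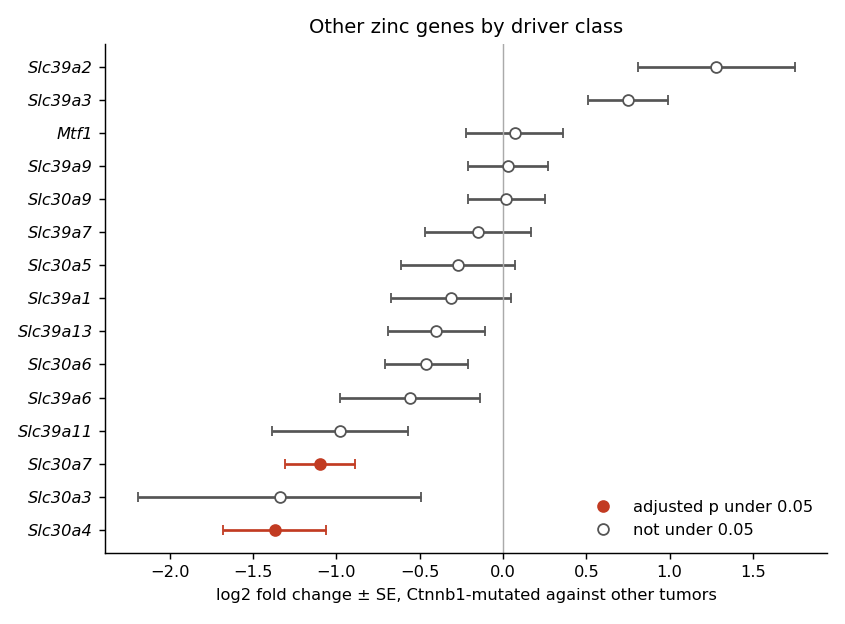
Log2 fold change with its SE, Ctnnb1-mutated against other tumors, of the 15 other zinc genes that were tested. Filled red points passed an edgeR adjusted p of 0.05: Slc30a4 and Slc30a7 at the lower end, while Slc39a2 and Slc39a3 at the upper end did not pass.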

How the data were processed

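RNA from 6 liver tumors and 6 non-tumor livers was sequenced by the authors as poly(A) libraries with paired ends. According to the submitters' processing notes and the methods of the study, reads were aligned by Subread against an mm10 genome extended by the mCherry transgene and counted per gene with featureCounts 1.6.4. The deposited values are raw read counts per gene symbol from the authors, 24421 in each library, with no normalization. The annotation release, the strand setting, and how multi-mapped reads were handled are not given in the sources used here. The authors corrected for the sequencing run, which is not given per sample, so that no run term could be fitted here.

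Samples were grouped by their genotype label and by the tumor mark in their titles. Counts were scaled (TMM), filtered with filterByExpr, and tested with the quasi-likelihood F test of edgeR 4.0.16 in R 4.3.3, with Benjamini-Hochberg adjustment over all genes kept and a threshold of 0.05. The SE is the log2 fold change divided by the square root of F. Comparisons between classes and genotypes used all 12 libraries in 1 model. By their labels, same-numbered samples come from the same mouse, with liver p_961 taken by elimination as that of T-HCC662. The deviations of tumor and liver from their groups correlated at 0.042 to 0.547 within mice (median 0.317). The median r of a tumor with the other livers was -0.115 to 0.074. T-HCC663 had 0.046 with its own liver, below its 0.074 with the others, and T-HCC941 had 0.042 against -0.031. The members and all gene lists were chosen with earlier results of these data known. The text names all members, of the other zinc genes up to 4 called per direction and Mtf1, and for Slc39a4 and Mt1 the 5 genes of highest r. Vil1, Gm2061, and single markers were named after their values were seen. The edgeR fits were tested on simulated data.

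The alternatives were DESeq2 1.42.0, RLE size factors, no filter beyond 1 count per gene, the mouse as a block over 6 mice or over the 5 whose labels share a number, only the libraries of the groups compared, and each library left out in turn. Transcripts of the members were compared with all GENCODE vM21 transcripts with blastn: over 100 bases or more at 95% identity they matched only the antisense genes that overlap them (for Slc30a1, Slc30a10, and Mt2). No pair of libraries of the same genotype and tissue agreed within sampling noise, and pairs across these groups were not compared. Not analysed here were TCi-HCC20-1, TCi-HCC20-3, TCi-HCC24, and the neoplasm of a wild-type mouse.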

Additional observations from a re-analysis of the deposited data

Results flagged for a closer look

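The check covered 36 sets of 4 or 6 libraries: 9 genes in all livers, all tumors, and each tissue of the p21+/Tert mice. In 10 of them a library stood apart by Dixon's ratio of its gap to the range. The ratio was taken on CPM and not on logs, and each of the 10 was the highest library of its set. Chance passes the test in about 1 of 20 groups only for normally distributed values. CPM over ranges as wide as these are not so distributed, so the 10 are not read as an excess. TCi-HCA984 stood above the other tumors for Mt1 (ratio 0.893) and Mt2 (0.828). Liver p_941 stood above the other p21+/Tert livers for Mt1 (0.984) and Mt2 (0.99), and T-HCC941 above the other p21+/Tert tumors for Mt2 (0.847). Liver L984_CI was apart for Slc39a14 (0.742). Liver NT_992 was apart for Slc39a4 (0.654) and Slc39a8 (0.679). T-HCC662 was apart among tumors for Slc39a5 (0.761), and T-HCA992 among p21+/Tert tumors for Slc39a10 (0.928). The sets share libraries and are not independent.

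Levels differed between Ctnnb1-mutated and other tumors for Slc39a5 (log2 difference 3.12), Slc30a10 (-3.04), and Slc39a8 (-0.85) by the edgeR test between the classes. All 3 lost the call with the mouse as a block.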

How the results depend on the processing

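In tumors against livers, the contrast that chose the list, the log2 fold change of Slc39a4 was 3.32 to 4.02 over 17 alternatives, which is a description and no sign of stability. Slc39a5 moved from 1.05 to -0.34 with the replicate block over 5 mice and to -0.17 without T-HCC662. Between Ctnnb1-mutated and other tumors, 3 members were called by edgeR and also by DESeq2, with RLE size factors, and with every gene of at least 1 count. With the replicate block over 6 mice or over 5 mice 0 were called, which leaves each fit fewer residual degrees of freedom, and with only the tumors in the fit 1 was (Slc30a10). Leaving out each library in turn gave 0 to 3. In the blocked fits Mt1 had 0.69 (6 mice) and 2.14 (5 mice) and Mt2 1.26 and 2.78, against -4.14 and -4.04 without the block; liver p_663 and liver p_961 had low Mt1 as well. The block changed no other call of a member. Slc30a4 and Slc30a7, whose alternatives were added after seeing the data, lost their calls in both blocked fits and with only the tumors in the fit. Over all genes this comparison had 1794 calls, against 3023 by DESeq2, 502 and 64 with the block over 6 and 5 mice, 766 with only the tumors, and 380 to 1937 leaving out libraries, and tumors against livers had 1476, against 2407 by DESeq2 and 863 to 1988 leaving out libraries. In the other 3 comparisons 0 members were called in every alternative run. The liver comparison has 1 library per mouse and no block. With 2 Ctnnb1-mutated tumors, leaving out either leaves a lone sample assumed to vary like the other groups. The depth limits Slc39a5 most, which had 8 to 309 reads per library.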
